A study of Homo sapiens with 48 samples.

Results

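Long cassette exons, those of 250 nt or more that a transcript can either keep or skip, were examined in senescent and non-senescent human fibroblasts depleted of a splicing factor. They were taken from the splicing event table of the study as events of a cassette exon class with a length of at least 250 nt. Their per cent spliced-in (PSI, the share of transcripts that keep the exon) had to be given in all 48 libraries, with a coverage score above the lowest grade in each. By this rule 944 exons of 746 genes were chosen, out of 24757 cassette exons of any length that met the same demands on PSI and coverage. Coverage was what limited the number, since 10658 long cassette events were listed and 4286 of them had a PSI in every library.

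The RNA came from IMR90 ER:RAS cells, a line of human lung fibroblasts that carries oncogenic HRAS G12V fused to the ligand-binding domain of the oestrogen receptor. All cells carried the fusion, and 6 days of 4-hydroxytamoxifen (4OHT) switched it on and drove them into senescence, whereas DMSO, the solvent, left it off. Non-targeting siRNAs (siNT) or siRNAs against SF3B1 or RBM39 (siSF3B1, siRBM39) were then transfected, and the cells were kept for 2 more days in 0.5% serum before RNA was taken. This gave 6 groups of 8 libraries, with 4 replicates of each of 2 siRNAs per target. In 4OHT, 4 siNT libraries are labelled with both non-targeting siRNAs, and they were counted as siNT2. The study's methods describe its in vitro replicates in general as independent experiments. The labels do not say that these replicates came from separate cultures, so p-values measure the spread between these libraries, which may be technical. Libraries held 31467221 to 52734636 gene counts. Gene levels are given as CPM (gene counts scaled to the library's total, adjusted by edgeR's scaling factor for each library). All 8 fibroblast markers were listed, with a summed level of 11483 to 59092 CPM per library. Summed levels were 6.63 to 82.4 for epithelial, 0.544 to 7.98 for endothelial and 33.1 to 114 for leukocyte markers, the last almost wholly CD68. The targeted genes checked the labels: SF3B1 fell from 359 ± 25.4 to 32.8 ± 1.57 CPM in DMSO and from 328 ± 8.26 to 27.3 ± 1.90 CPM in 4OHT, and RBM39 from 170 ± 9.77 to 27.4 ± 2.18 and from 120 ± 4.31 to 16.3 ± 1.73 CPM (mean ± SD of 8 libraries, as throughout). Knockdown and siNT libraries did not overlap in either gene. Each factor was higher when the other was depleted: RBM39 stood at 302 and 251 CPM after siSF3B1 in DMSO and 4OHT (log2 fold changes of 0.83 and 1.06), and SF3B1 at 492 and 402 CPM after siRBM39 (0.46 and 0.29). The part of these rises in the exon values below was not tested. Replicate 4 of siRBM39-08 in 4OHT stood apart from its group in gene levels (a mean absolute log2 deviation of 0.59 from the rest of its group, the next highest library being at 0.31). Without it 27 long exons in place of 26 were called after siRBM39 in 4OHT, and 48 in place of 50 between the knockdowns, and the named exons called after siRBM39 in 4OHT kept their direction.

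Most internal exons of human genes are far shorter than 250 nt, since splice sites are paired most readily across a short exon, and long internal exons often encode whole protein domains or unstructured regions. SF3B1 is the largest subunit of the SF3b complex of the U2 snRNP, which holds the branch point upstream of an exon. RBM39 is an RNA-binding protein of nuclear speckles that is related to the U2AF large subunit, which reads the pyrimidine-rich tract between the branch point and the AG at the 3′ splice site.

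The 3′ splice sites of 7 long exons on which the comparisons below turn are shown so that their pyrimidine tracts can be read. Each line holds 50 intron bases in lower case and then, in capitals, the first 10 bases of the exon, 5′ to 3′ on the gene's strand, from GRCh37. The exons lie at chr16:4743979-4744239 (NUDT16L1, plus strand), chr5:126860223-126860612 (PRRC1, plus), chr2:12863386-12863678 (TRIB2, plus), chr4:39064179-39064655 (KLHL5, plus), chr6:36442566-36442839 (KCTD20, plus), chr6:33280994-33281254 (TAPBP, minus) and chr1:95006128-95006622 (F3, minus). All are annotated as coding or partly coding except that of F3, which is annotated in a non-coding transcript.
NUDT16L1, 261 nt, lower after siSF3B1: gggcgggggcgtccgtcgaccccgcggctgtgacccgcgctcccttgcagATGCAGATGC
PRRC1, 390 nt, lower after siSF3B1: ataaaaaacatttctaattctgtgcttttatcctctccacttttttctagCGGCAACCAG
TRIB2, 293 nt, lower after siSF3B1: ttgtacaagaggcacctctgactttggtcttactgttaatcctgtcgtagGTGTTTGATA
KLHL5, 477 nt, higher after siSF3B1 and siRBM39: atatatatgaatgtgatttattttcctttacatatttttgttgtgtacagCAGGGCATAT
KCTD20, 274 nt, lower after siRBM39 and siSF3B1: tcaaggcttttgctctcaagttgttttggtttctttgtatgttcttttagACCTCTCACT
TAPBP, 261 nt, lower after siRBM39: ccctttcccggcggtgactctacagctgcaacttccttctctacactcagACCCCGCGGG
F3, 495 nt, lower after siSF3B1 and higher after siRBM39: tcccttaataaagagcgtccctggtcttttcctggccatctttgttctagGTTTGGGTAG
Over the 20 bases before the final AG, pyrimidines made up 65% in KLHL5, 70% in NUDT16L1 and TRIB2, 80% in KCTD20, TAPBP and F3, and 90% in PRRC1. Exons that fell after siSF3B1 thus included tracts on either side of the median of 75% for long exons.

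4 long exons of the matrix genes FN1 and TNC are printed whole because they are near-equal in length, each codes for a fibronectin type III repeat, and yet they responded differently. Capitals mark the exon, and the lower-case bases are the 10 intron bases on each side. The extra domain A (EDA) exon of FN1 lies at chr2:216245534-216245803 and the extra domain B (EDB) exon upstream of it at chr2:216257654-216257926. The TNC exons lie at chr9:117825196-117825468 (called upstream here) and chr9:117810539-117810811 (downstream), and all 4 are on the minus strand of GRCh37.
FN1 EDA, 270 nt, lower after siRBM39: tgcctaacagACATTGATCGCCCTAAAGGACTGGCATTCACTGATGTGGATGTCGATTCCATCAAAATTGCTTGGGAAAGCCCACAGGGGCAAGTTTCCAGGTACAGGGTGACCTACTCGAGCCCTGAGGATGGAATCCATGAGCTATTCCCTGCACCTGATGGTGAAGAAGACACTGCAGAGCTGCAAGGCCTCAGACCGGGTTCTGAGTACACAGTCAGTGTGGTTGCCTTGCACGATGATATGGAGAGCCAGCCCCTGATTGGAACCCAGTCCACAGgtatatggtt
FN1 EDB, 273 nt, higher after siRBM39 in 4OHT: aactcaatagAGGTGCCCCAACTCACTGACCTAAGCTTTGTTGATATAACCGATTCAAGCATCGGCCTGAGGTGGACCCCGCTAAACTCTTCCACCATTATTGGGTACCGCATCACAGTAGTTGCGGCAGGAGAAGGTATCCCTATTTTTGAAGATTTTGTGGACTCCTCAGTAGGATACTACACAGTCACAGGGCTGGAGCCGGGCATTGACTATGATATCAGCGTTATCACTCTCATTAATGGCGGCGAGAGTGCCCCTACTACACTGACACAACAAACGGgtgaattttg
TNC upstream, 273 nt, lower after siRBM39: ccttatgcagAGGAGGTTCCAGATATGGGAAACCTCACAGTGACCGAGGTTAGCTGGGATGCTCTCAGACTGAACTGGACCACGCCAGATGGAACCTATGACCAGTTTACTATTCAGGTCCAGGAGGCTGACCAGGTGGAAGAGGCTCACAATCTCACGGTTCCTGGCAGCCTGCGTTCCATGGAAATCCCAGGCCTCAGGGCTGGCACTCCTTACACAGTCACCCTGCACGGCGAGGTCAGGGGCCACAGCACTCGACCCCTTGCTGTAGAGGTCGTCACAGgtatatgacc
TNC downstream, 273 nt, lower after siRBM39: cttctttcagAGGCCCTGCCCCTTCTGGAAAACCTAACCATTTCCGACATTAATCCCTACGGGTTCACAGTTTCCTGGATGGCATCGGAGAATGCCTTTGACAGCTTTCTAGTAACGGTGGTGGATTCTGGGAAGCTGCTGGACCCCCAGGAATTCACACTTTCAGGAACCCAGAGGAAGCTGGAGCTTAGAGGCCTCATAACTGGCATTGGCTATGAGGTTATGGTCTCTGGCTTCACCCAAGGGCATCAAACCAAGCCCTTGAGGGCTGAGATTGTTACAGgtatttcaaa
Compared base by base without gaps, the 2 TNC exons were 50.2% identical, and EDB was 30.04% and 31.5% identical to the upstream and the downstream TNC exon. A further 273 nt TNC exon was 71.4% identical to the upstream one. Splice-site tracts differed as well, with 65% pyrimidines before EDA and the upstream TNC exon, 70% before EDB and 95% before the downstream TNC exon.

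The 944 exons had a median length of 309 nt and reached 8185 nt in MAP1A, which encodes a microtubule-associated protein. 138 genes held 2 or more of them, led by the matrix genes COL6A3 with 11 and TNC with 10. In 378 exons (40.04%) the length was a multiple of 3, so that skipping would keep the reading frame, against 40.7% of all 24757 exons. Of the 740 exons matched to a GRCh37 gene model, 627 were coding, 91 partly coding, 12 lay in untranslated regions and 10 in non-coding transcripts. In DMSO siNT cells 776 exons had a mean PSI (called the control PSI below) of at least 95, 131 had one of at most 5, and 37 (3.92%) lay between, against 3.36% of all exons. The PSI of a long exon rested on a median of 94 corrected reads, close to the 99.5 of all exons. Exons next to the length limit were close to fully included on either side of it. Just inside, mean PSI in 4OHT siNT and 4OHT siSF3B1 libraries was 98.3 and 97.7 for PXDN (250 nt), 99.9 and 99.9 for ITGB5 (250 nt) and 99.9 and 99.2 for WNT5A (251 nt). Just outside, it was 100 and 100 for FLNA (248 nt) and MYH9 (249 nt), and 99.8 and 98.98 for TMED3 (249 nt).

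Depletion of SF3B1 lowered the inclusion of long exons far more often than it raised it, yet it reached a smaller share of them than of exons in general. Calls needed a limma adjusted p under 0.05 together with mean PSI values at least 5 points apart. In DMSO 42 long exons (4.45%) were called, 34 lower and 8 higher, against 8.09% of all exons tested (7.78% lower, 0.307% higher). In 4OHT 44 (4.66%) were called, 35 lower and 9 higher, against a background of 9.04%. In each treatment 14 of the 944 long exons were called without overlap between the 8 siSF3B1 and the 8 siNT libraries. Of all 24757 exons, 1211 (4.89%) were so called in DMSO and 1418 (5.73%) in 4OHT. Split by direction, long exons were called lower at 3.71% in 4OHT against 8.73% of all exons, and higher at 0.953% against 0.307%. The mean difference over long exons in 4OHT was -0.487 points, against -1.76 for shorter ones. These shares are descriptions, and no test set the long exons against the rest.

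The share called fell with length up to 250 nt and did not keep falling beyond it. After siSF3B1 in 4OHT it was 19.4% for exons of 3 to 27 nt, 13.3% for 28 to 99 nt, 7.74% for 100 to 149 nt, 4.70% for 150 to 249 nt and 4.60% for 250 to 499 nt. It was then 3.42% of the 146 exons of 500 to 999 nt and 8.47% of the 59 of 1000 nt or more, where 5 exons were called. In DMSO the last 3 length classes stood at 3.52%, 6.85% and 10.2%, and in both treatments no exon of 1000 nt or more was called higher. Among exons with a control PSI of at least 95, 2.96% of the long ones were called in 4OHT against 8.47% of the shorter ones.

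**Figure D1:**
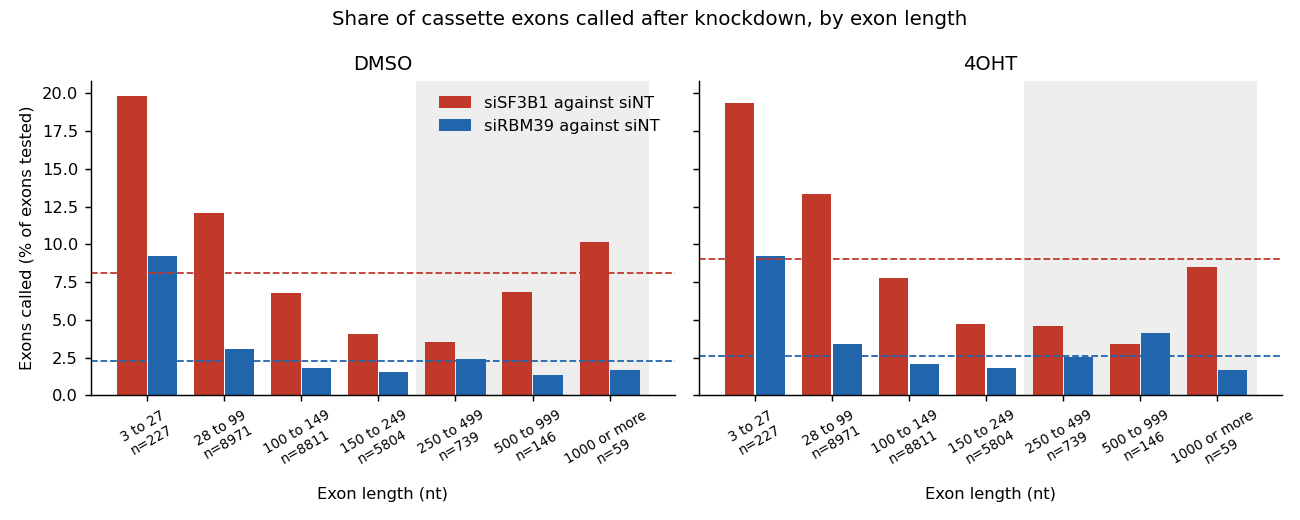
Bars give the percentage of cassette exons called after siSF3B1 (red) or siRBM39 (blue) against siNT, in DMSO (left) and 4OHT (right), by exon length in nt with the number of exons under each class. Grey shading marks the long exons and dashed lines the percentage over all exons, and the red bars for 250 to 499 nt (3.52% and 4.60%) stand below the red lines at 8.09% and 9.04%.

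Among long exons called without overlap of libraries and with a median of at least 20 reads, 3 fell most after siSF3B1 in 4OHT. These were close to fully included in siNT cells. They lay in NUDT16L1, whose product binds 53BP1, in PRRC1, and in TRIB2, a pseudokinase of the Tribbles family. A called exon outside this set, with an intermediate control PSI, fell by 20.1 points, more than that of TRIB2. PSI of the NUDT16L1 exon ran from 65.9 to 81.8 (median 74.1) in the siSF3B1 libraries and from 97.2 to 100 (median 100) in siNT. The PRRC1 exon ranged from 69.5 to 81.0 (median 78.02) against 98.9 to 100 (median 100). For the TRIB2 exon the range was 68.6 to 93.6 (median 80.7) against 97.2 to 100 (median 100). All siSF3B1 libraries were below all siNT libraries for the 3 exons. NUDT16L1 fell by 24.5 points (74.8 ± 5.86 against 99.4 ± 1.17, limma adjusted p = 2.47e-21), PRRC1 fell by 22.97 points (76.9 ± 3.51 against 99.9 ± 0.389, 5.76e-27) and TRIB2 by 18.7 points (80.9 ± 6.79 against 99.7 ± 0.983, 9.47e-08). After siRBM39 in 4OHT the NUDT16L1 and PRRC1 exons were at 100 in every library. Wherever knockdown and control libraries did not overlap, the two-sided exact permutation test of 8 against 8 must give 0.000155, its smallest p. Exons were named for this lack of overlap, so that p adds no support here or below.

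Longer exons followed the same course in MBD6, a protein with a methyl-CpG-binding domain, and in TIPARP, a mono-ADP-ribosyltransferase. The 1041 nt exon of MBD6 was at 100 in every siNT library and at 74.7 to 94.4 (median 85.8) after siSF3B1 in 4OHT, a fall by 14.2 points (limma adjusted p = 2.36e-13). The 958 nt exon of TIPARP ranged from 83.9 to 93.2 (median 87.9) after siSF3B1, with a mean that fell by 12.2 points. KIAA0100 (295 nt, fell by 11.996 points) and LARP4B (252 nt, an RNA-binding protein, fell by 7.81 points) completed the near-constitutive exons among the 10 that fell without overlap. The other 3 of the 10 started from a lower PSI in 4OHT siNT cells (means of 21.6, 16.9 and 85.3). They lay in LRRC17, a secreted protein with leucine-rich repeats, in F3, the tissue factor that starts coagulation, and in TBX2, a transcriptional repressor of the T-box family. LRRC17 (519 nt) went from 17.3 to 25.4 (median 22.3) in siNT down to 2.71 to 5.88 (median 3.97), a fall by 17.4 points (5.65e-13).

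**Figure D2:**
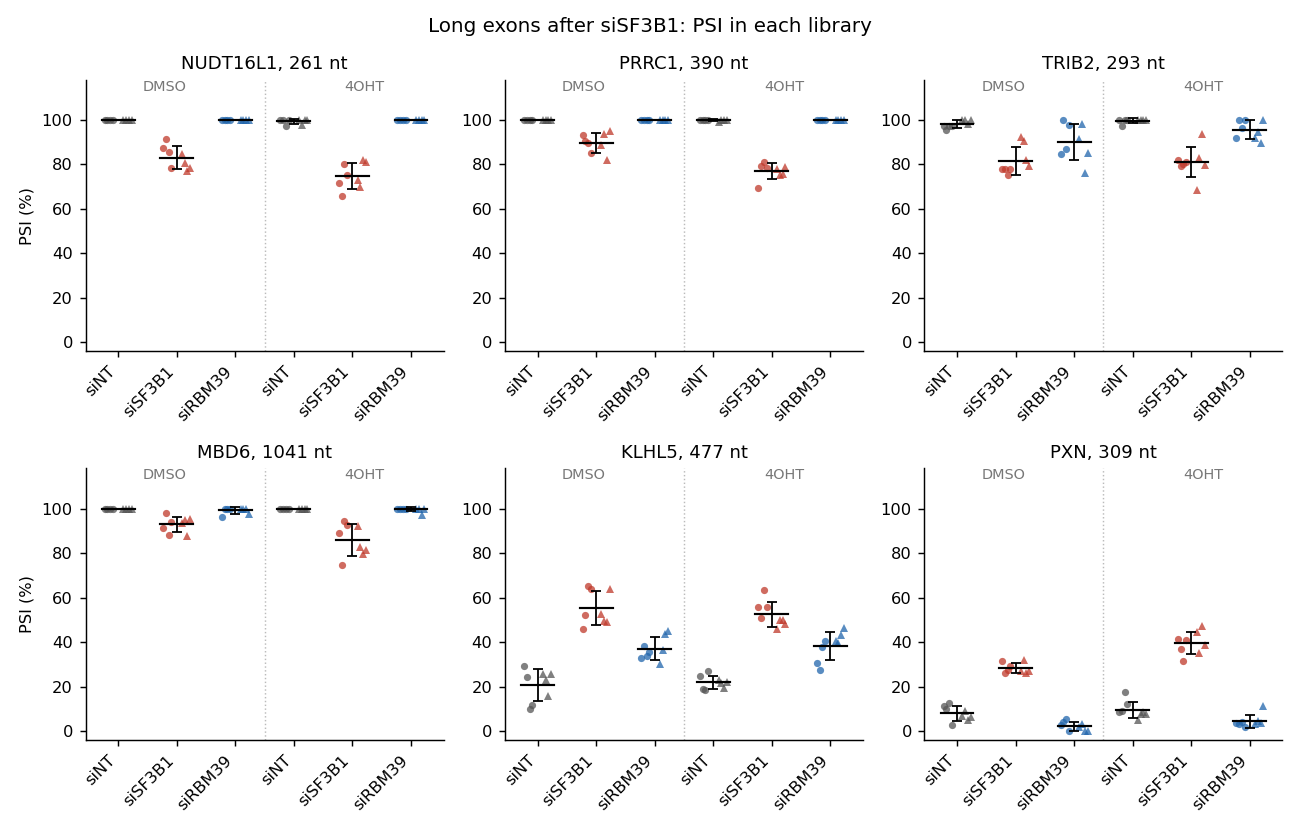
PSI (%) of 6 long exons in each of the 48 libraries, grouped by treatment and siRNA target, with circles for siNT1, siSF3B1-13 and siRBM39-06 and triangles for siNT2, siSF3B1-16 and siRBM39-08, horizontal lines for the mean of 8 libraries and bars for ± SD. NUDT16L1, PRRC1, TRIB2 and MBD6 drop from about 100 in the red siSF3B1 groups, with TRIB2 also at 90.0 in the DMSO siRBM39 group, whereas KLHL5 (21.95 to 52.6 in 4OHT) and PXN (9.51 to 39.6) rise.

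A smaller set of long exons rose after siSF3B1, led by KLHL5, which encodes a Kelch-repeat protein, and PXN, which encodes the focal adhesion adaptor paxillin. PSI of the 477 nt KLHL5 exon was 46.1 to 63.5 (median 50.5) in siSF3B1 and 18.7 to 27.1 (median 21.8) in siNT libraries of 4OHT-treated cells. PSI of the 309 nt PXN exon was 31.6 to 47.3 (median 39.9) against 5.13 to 17.6 (median 8.51). Neither exon had overlapping libraries, and they rose by 30.6 points (52.6 ± 5.54 against 21.95 ± 3.01, limma adjusted p = 2.66e-10) and 30.1 points (39.6 ± 5.09 against 9.51 ± 3.79, 1.48e-08). In DMSO the rises were 34.6 and 20.4 points. CCDC50 (528 nt) rose from 0.774 to 8.52, by 7.75 points. None of the 9 exons called higher had a control PSI of 95 or more, and in 6 the length was a multiple of 3.

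After siSF3B1, 27 long exons were called in both treatments, 64.3% of the 42 and 61.4% of the 44, all in the same direction. In DMSO the largest fall without overlap was in PQBP1, which encodes a polyglutamine-binding protein that associates with spliceosomes. Its 285 nt exon ranged from 48.7 to 75.8 (median 58.0) after siSF3B1 and from 81.8 to 100 (median 90.6) in siNT, and fell by 30.6 points (limma adjusted p = 1.39e-06). In 4OHT it fell by 11.2 points (0.0428) with overlapping libraries. NUDT16L1 (fell by 17.05 points) and TRIB2 (fell by 16.5 points) followed in DMSO. The difference between the effects in 4OHT and DMSO was itself called for 1 long exon, against 0.158% of all exons. That exon was PRRC1, at 81.9 to 95.2 (median 90.0) after siSF3B1 in DMSO and, as above, lower in 4OHT. Its fall was 12.7 points deeper in 4OHT (limma adjusted p = 0.00255), but no long exon was called in this comparison without replicate 2.

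RBM39 depletion changed fewer long exons, at about the rate seen for all exons, and most of those it lowered were alternative in siNT cells. In DMSO 21 (2.22%) were called, 17 lower and 4 higher, against 2.28% of all exons (2% lower, 0.275% higher). In 4OHT 26 (2.75%) were called, 18 lower and 8 higher, against 2.61% (2.32% lower, 0.291% higher). Of the 944 long exons 12 and 15 were called without overlap of libraries, against 290 (1.17%) and 343 (1.39%) of all 24757 exons. The 18 exons lower in 4OHT lay in 13 genes and had a median length of 276.5 nt. In 14 of them the length was a multiple of 3, against 40.04% of the 944 long exons. Of these 18, 4 had a control PSI of 95 or more, compared with 23 of the 35 that fell after siSF3B1. Exons with a control PSI between 5 and 95 held most of the response to siRBM39 in 4OHT, with 20 of 37 long exons called (54.1%) against 37.6% of shorter exons in that range. 17 exons were called in both treatments, 81.0% of the 21 and 65.4% of the 26, all in the same direction. No long exon was called for a difference between the effects of siRBM39 in 4OHT and DMSO by limma, against 0.00808% of all exons, and 31 had an unadjusted p under 0.05.

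**Figure D3:**
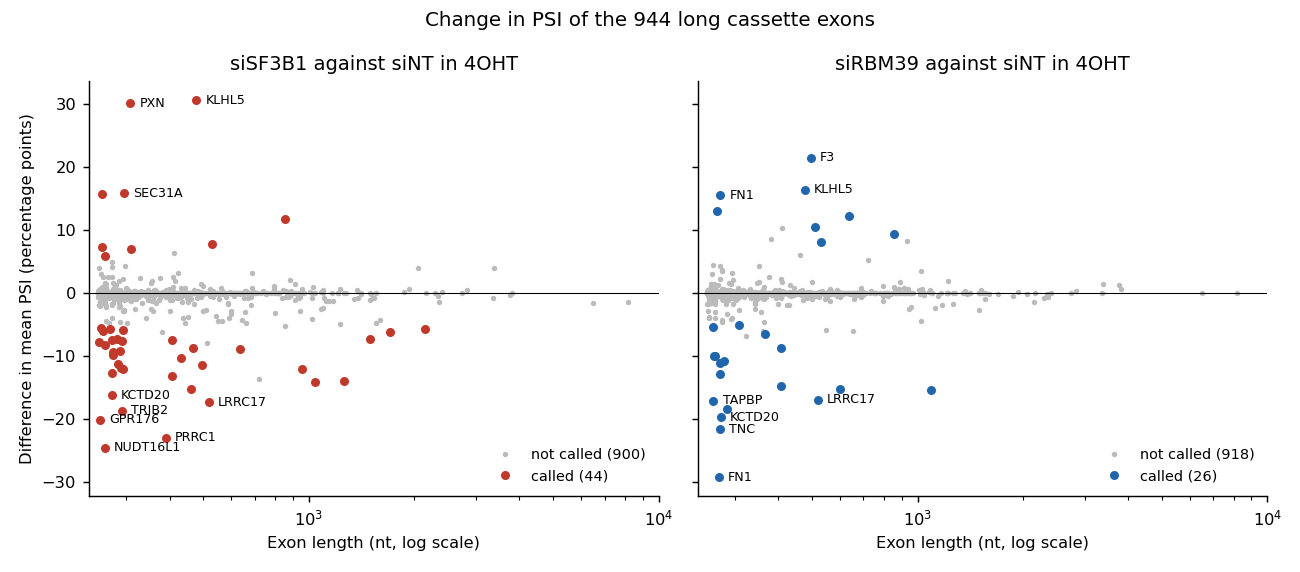
Difference in mean PSI (percentage points) between knockdown and siNT in 4OHT for each of the 944 long exons, plotted against exon length (nt, log scale), for siSF3B1 (left) and siRBM39 (right). Coloured points are the called exons, 44 and 26, with some of the largest named. Of all 944 exons 739 were 250 to 499 nt long, as were 34 and 19 of those called. After siRBM39 FN1 has a point at -29.2 and another at 15.5 points.

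The matrix and adhesion genes listed here held 45 of the 944 long exons and supplied 6 of the 26 called after siRBM39 in 4OHT. The list was written with earlier results of these data known, so its counts do not test matrix genes as a set. Of its 22 genes 12 held the 45 long exons. Among these exons 5 were called lower and 1 higher after siRBM39 in each treatment. Over all exons tested 2.32% were called lower and 0.291% higher in 4OHT, and 2% and 0.275% in DMSO. The 6 called in 4OHT lay in FN1, TNC and COL6A3. After siSF3B1 2 of the 45 were lower and 2 higher in DMSO, against 7.78% lower and 0.307% higher over all exons. In 4OHT 2 were lower, against 8.73% of all exons. The median difference over the 45 lay between -0.01 and 0 points in every comparison, and over all exons tested it was 0. EDA and EDB are the classic alternative exons of fibronectin, a glycoprotein of the pericellular matrix, and tenascin-C, from TNC, is a matrix protein with a block of optional type III repeats.

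FN1 EDA was the long exon that fell most after siRBM39 in 4OHT. Its PSI was 29.3 to 37.98 (median 33.7) against 58.8 to 68.0 (median 62.4) in siNT, and in DMSO 34.4 to 43.2 (median 39.9) against 58.1 to 68.1 (median 61.1). Knockdown and control libraries were separate in both treatments, with 344 to 1474 reads behind each value in 4OHT. EDA fell by 29.2 points in 4OHT (33.6 ± 2.80 against 62.9 ± 3.91, limma adjusted p = 1.29e-17) and by 22.4 points in DMSO (9.19e-14). After siSF3B1 in 4OHT it fell by 5.77 points (0.00752), with overlapping libraries.

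EDB moved the other way in the same gene. Its PSI in 4OHT was 45.6 to 53.7 (median 51.8) after siRBM39, 33.3 to 37.8 (median 35.2) with siNT and 30.9 to 43.5 (median 40.2) after siSF3B1. The siRBM39 libraries were above all siNT and all siSF3B1 libraries. EDB rose by 15.5 points against siNT (50.9 ± 3.14 against 35.4 ± 1.44, limma adjusted p = 4.40e-10). In DMSO the means were 54.0 ± 2.83 and 48.8 ± 1.94, which did not pass the test (0.0517), and the difference between the effects in 4OHT and DMSO, 10.3 points, did not pass either. The siSF3B1 libraries in 4OHT split by siRNA, with means of 33.6 for siSF3B1-13 and 42.2 for siSF3B1-16, either side of siNT. The other 3 long exons of FN1 were at 99.9 to 100 in every group mean.

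**Figure D4:**
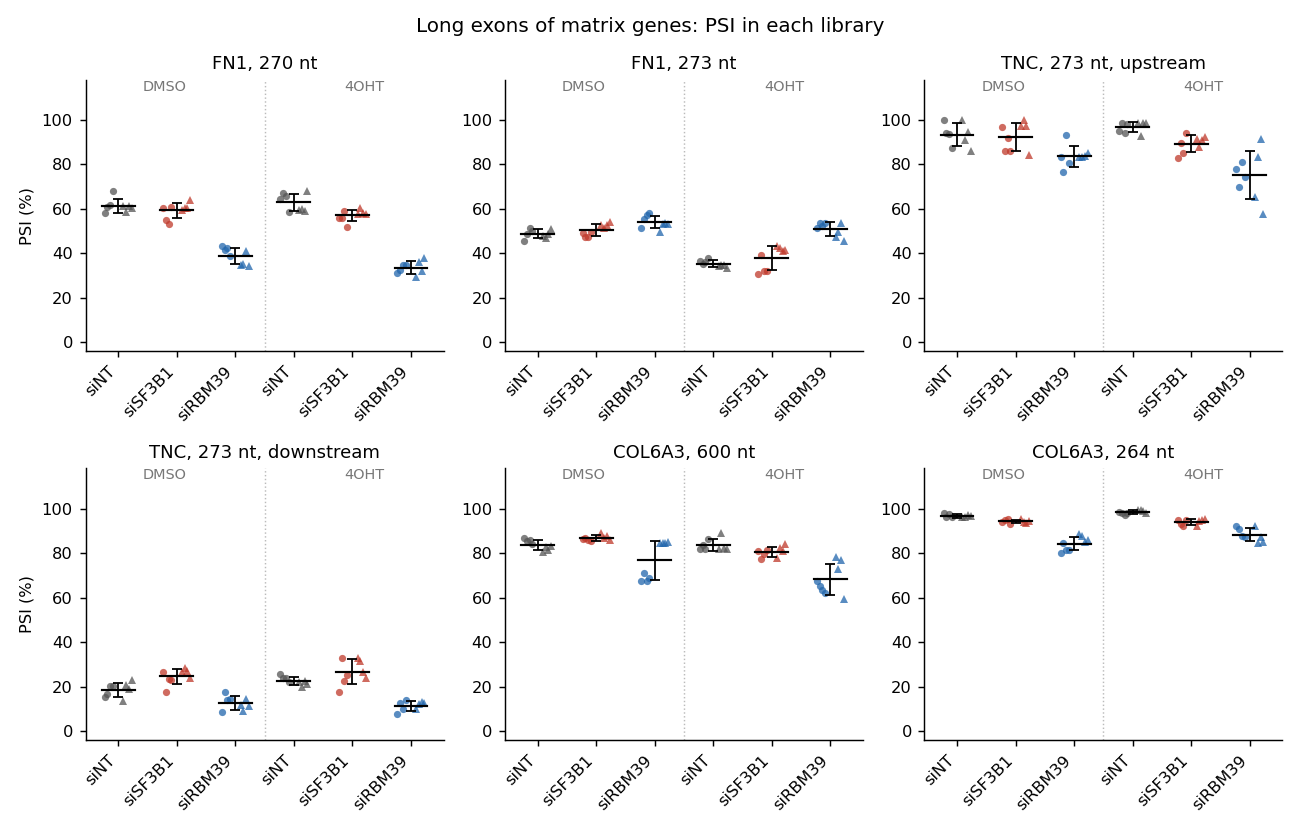
PSI (%) in each library for 6 long exons of FN1, TNC and COL6A3, with circles and triangles for the 2 siRNAs of a target, lines for means of 8 libraries and bars for ± SD. FN1 270 nt (EDA) drops in both siRBM39 groups, FN1 273 nt (EDB) drops from 48.8 in DMSO to 35.4 in 4OHT with siNT and stands at 50.9 with siRBM39, and the COL6A3 600 nt exon splits by siRNA after siRBM39 in DMSO.

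Exons of TNC and COL6A3 fell after siRBM39 as well. The upstream TNC exon ranged from 57.8 to 91.3 (median 76.3) in siRBM39 and from 92.7 to 98.7 (median 98.2) in siNT libraries of 4OHT-treated cells, and the downstream one from 7.52 to 14.1 (median 12.3) against 19.95 to 25.5 (median 22.3). Neither overlapped, and they fell by 21.6 points (limma adjusted p = 5.89e-05) and 11.1 points (5.44e-07). The downstream exon was one of the few that differed in direction between knockdowns, since in DMSO it rose by 6.02 points after siSF3B1 (0.0170) and fell by 5.87 points after siRBM39 (0.00733), with libraries overlapping in each. COL6A3, a chain of type VI collagen, had 11 long exons, several of which encode a von Willebrand factor A domain each. Its 600 nt exon went from 81.7 to 88.8 (median 82.2) to 59.6 to 78.4 (median 66.3) in 4OHT, a fall by 15.3 points (1.85e-05). In DMSO that exon did not pass the test (0.120), and its libraries split by siRNA, with a mean of 68.7 for siRBM39-06 and 84.7 for siRBM39-08 against 83.8 for siNT. The 264 nt exon of COL6A3, singled out after its values were seen, fell by 10.01 points in 4OHT (98.3 to 88.3) and by 12.4 points in DMSO (96.6 to 84.3), and the other 9 stayed at group means of 98.6 to 100. In COL12A1, which encodes a collagen of fibril surfaces, a 273 nt exon rose in DMSO after siRBM39 from 67.9 to 75.1 (median 73.1) to 83.5 to 94.1 (median 85.9), by 14.6 points (5.57e-06).

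Outside the matrix, siRBM39 lowered long exons of KCTD20, of TAPBP, which encodes tapasin of the class I peptide-loading complex, and of SRRM2, a scaffold protein of nuclear speckles. The KCTD20 exon ranged from 64.2 to 89.5 (median 73.8) after siRBM39 in 4OHT and from 89.6 to 100 (median 94.8) in siNT, and fell by 19.8 points (limma adjusted p = 4.64e-05). The TAPBP exon ranged from 64.1 to 85.5 (median 75.5) against 87.2 to 96.7 (median 93.4), and fell by 17.1 points (0.00491) in 4OHT and by 19.1 points (3.40e-05) in DMSO. No library of either exon overlapped between siRBM39 and siNT in 4OHT. KCTD20 also fell after siSF3B1, by 16.2 points, whereas TAPBP after siSF3B1 stood at 94.1 ± 4.92 against 92.6 ± 3.57 (adjusted p = 0.375). A 262 nt exon of SRRM2 was almost lost, with a PSI of 0 to 1.64 (median 0) against 6.67 to 22.9 (median 8.17), a fall by 10.04 points (7.88e-11). NDUFV3, a subunit of mitochondrial complex I, had the largest fall in DMSO. Its 1095 nt exon went from 65.1 to 83.7 (median 70.3) to 27.4 to 52.6 (median 47.02), by 26.8 points (1.46e-06).

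Exons that rose after siRBM39 in 4OHT included FGFR1, the receptor tyrosine kinase for fibroblast growth factors, where a 267 nt exon went from 2.61 to 10.6 (median 7.42) to 14.9 to 28.7 (median 19.1). No libraries overlapped and the rise was 13.0 points (limma adjusted p = 2.85e-07), on 18 to 86 reads per library. KLHL5 rose by 16.4 points (0.000204) and CCDC50 by 8.12 points, in the direction each also took after siSF3B1. Both knockdowns are compared with the same siNT libraries, so their values are set side by side without a count of overlap.

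Long exons of F3 and TBX2 moved in opposite directions in the knockdowns. In 4OHT the F3 exon had a PSI of 12.4 to 22.8 (median 16.1) with siNT, 3.62 to 7.14 (median 5.61) after siSF3B1 and 28.3 to 53.4 (median 36.96) after siRBM39. The 635 nt TBX2 exon stood at 84.2 to 87.0 (median 85.3), 71.6 to 79.8 (median 76.3) and 96.9 to 98.5 (median 97.4) in the same order. The 3 groups of libraries did not overlap for either exon, with siSF3B1 lowest and siRBM39 highest. F3 fell by 11.4 points after siSF3B1 (limma adjusted p = 1.17e-10) and rose by 21.4 points after siRBM39 (3.64e-09). TBX2 fell by 8.91 points (5.36e-06) and rose by 12.2 points (6.24e-18).

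Tested directly in 4OHT, siSF3B1 and siRBM39 libraries differed in 50 long exons (5.30%), 31 lower and 19 higher with siSF3B1, against 7.76% of all exons (6.86% lower, 0.897% higher). Of the 944 long exons 18 were called without overlap of libraries, against 1101 of all 24757 exons (4.45%). The largest differences without overlap were -32.9 points in F3 (limma adjusted p = 1.27e-19), -25.2 in NUDT16L1, -23.1 in PRRC1 and -21.1 in TBX2 (1.59e-23). On the other side stood PXN at 35.1 points (1.94e-12), FN1 EDA at 23.5 (1.95e-15), TAPBP at 18.6 and the downstream TNC exon at 15.3. For PXN the gap included a fall by 5.03 points after siRBM39 (0.0464) that rested on overlapping libraries. The upstream TNC exon, at 89.4 ± 3.69 after siSF3B1 and 75.2 ± 10.7 after siRBM39, did not pass this test (0.0810).

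**Figure D5:**
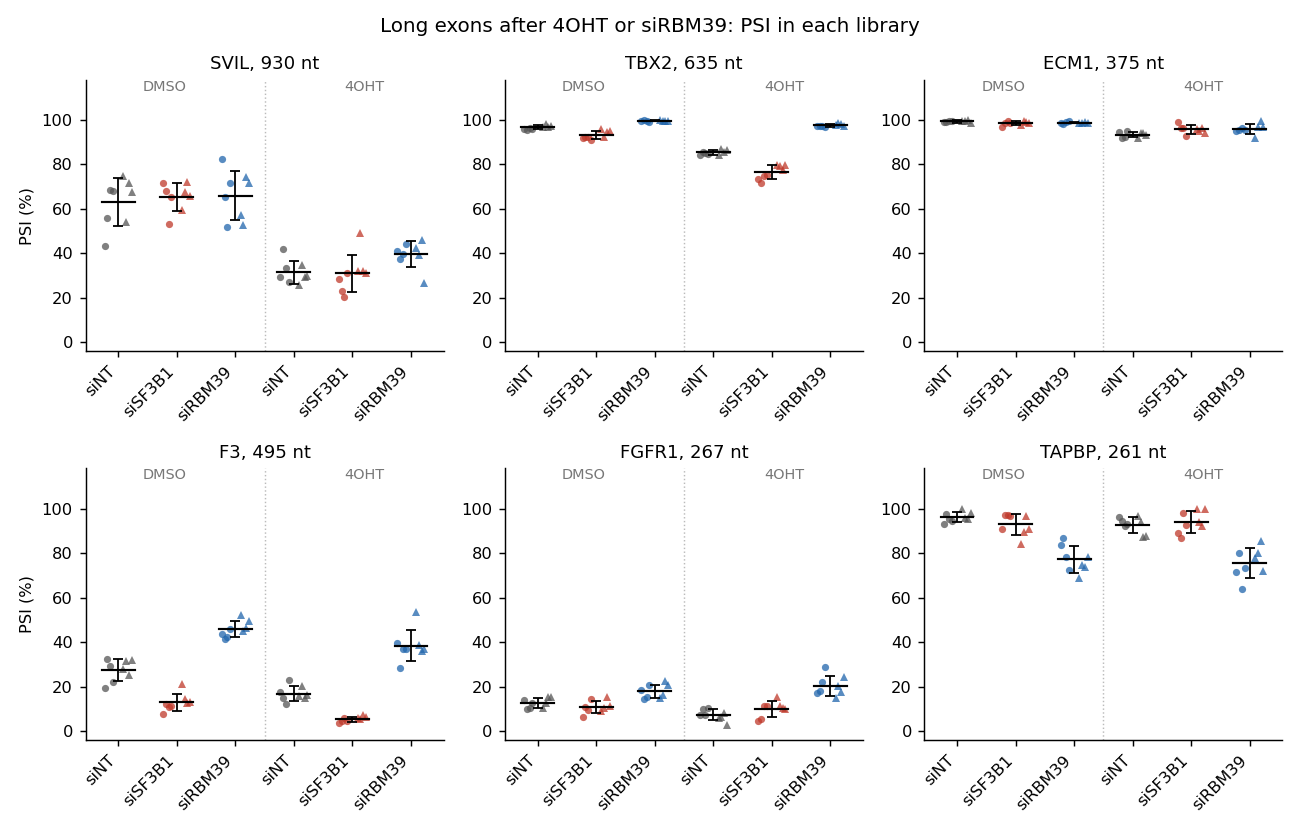
PSI (%) in each library for 6 long exons, with circles and triangles for the 2 siRNAs of a target, lines for means of 8 libraries and bars for ± SD. SVIL falls from 63.0 to 31.5 between DMSO and 4OHT with siNT and sits low in all 4OHT groups, TBX2 and F3 order as siSF3B1, siNT, siRBM39 in each treatment, and FGFR1 and TAPBP move after siRBM39.

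Without a knockdown, few long exons differed between 4OHT and DMSO. All cells carried the fusion, so the drug, RAS and senescence cannot be told apart here. With siNT, 8 were called between 4OHT and DMSO (0.847%), 7 lower and 1 higher in 4OHT, against 0.452% of all exons (0.335% lower, 0.117% higher). The count was 5 without replicate 2 and 4 without replicate 3. Of the 944 long exons 4 were called without overlap of libraries, against 65 of all 24757 exons (0.263%). The largest was a 930 nt exon of SVIL, the actin- and myosin-binding protein supervillin. Its PSI ran from 43.4 to 74.7 (median 67.8) in DMSO and from 25.9 to 41.8 (median 29.6) in 4OHT. The groups did not overlap and it fell by 31.6 points (63.0 ± 10.7 to 31.5 ± 5.12, limma adjusted p = 3.73e-06). Neither knockdown was called for this exon, with group means of 65.4 and 66.0 in DMSO and 30.995 and 39.6 in 4OHT after siSF3B1 and siRBM39.

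The other falls in 4OHT without overlap were in FN1 EDB, TBX2 and ECM1, a secreted matrix protein. EDB went from 45.7 to 51.5 (median 48.7) to 33.3 to 37.8 (median 35.2), by 13.4 points (limma adjusted p = 9.29e-08). TBX2 went from 95.6 to 98.2 (median 96.6) to 84.2 to 87.0 (median 85.3), by 11.2 points (4.49e-15). The 375 nt ECM1 exon went from 98.4 to 100 (median 99.3) to 91.9 to 94.8 (median 93.4), by 5.93 points (1.39e-08). F3 fell by 10.6 points (0.00275) and FGFR1 fell by 5.37 points (0.0372) with overlapping libraries.

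Of the 5 longest exons only that of MAP1A was called in any comparison. MAP1A (8185 nt), which like MAP1B encodes a microtubule-associated protein, went from 99.8 to 94.8 after siSF3B1 in DMSO, a fall by 5.01 points (limma adjusted p = 5.48e-12), and by 1.47 points in 4OHT. MAP1B (6502 nt), MPRIP (3807 nt) and KIAA1462 (3764 nt) were not called in any comparison. A 3384 nt exon of MAP4 went from 1.21 to 5.17 after siSF3B1 in 4OHT, a difference of 3.96 points that lay under the 5-point minimum. Over all 8 comparisons, 80 long exons (8.47%) were called at least once, against 11.4% of all exons tested, so that few calls are to be had in short lists. Among the other gene lists, splicing factors with poison exons (3 long exons, in HNRNPM, SRSF2 and SRSF5), DNA repair and replication (1 exon, in TP53BP1) and chromatin and transcription (13 exons) had none called in any comparison. No gene of the cell cycle and senescence list held a long exon that met the rule. In the cytoskeleton and mitosis list 2 of 21 exons were called, in SVIL and MAP1A, and of 9 zinc finger exons only that of ZNF638.

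In sequence, long exons as a whole had the same median pyrimidine share before the AG as shorter ones (75% in each, over 740 and 19007 matched exons), with a higher GC content (57.1% against 50.8%) and longer flanking introns (medians of 1543 and 1515 nt against 1145 and 1097). The 40 matched exons that fell after siSF3B1 in either treatment had a median pyrimidine share of 80% and flanking introns of 2156.5 and 2151.5 nt, and the 681 that were called after neither knockdown had 75% and introns of 1537 and 1485 nt. Exons that fell after siRBM39 (18 matched) had a median of 77.5% and an upstream intron of 870 nt, and the 9 that rose had 70%. The annotation listed the skipping junction for 14 of those 18 (77.8%), 14 of the 40 (35%) and 78 of the 681 (11.5%). These features were not tested between the sets, whose members were chosen by PSI.

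Expression of the genes that hold long exons moved about as often as that of all genes. In bulk RNA, fewer cells of a kind and less RNA per cell cannot be told apart. By edgeR, 539 of 742 host genes changed after siSF3B1 in DMSO (231 lower, 308 higher), where 72.7% of all genes tested changed (36.2% lower, 36.5% higher). In 4OHT 570 changed (262 lower, 308 higher), against 77% (37.6% lower, 39.4% higher). After siRBM39 in DMSO 350 of the 742 changed (153 lower, 197 higher), against 46.1% of all genes tested (22.2% lower, 23.9% higher). With siRBM39 in 4OHT 404 of the 742 changed (165 lower, 239 higher), against 56.4% (24.2% lower, 32.2% higher). Of the 35 genes whose long exon fell after siSF3B1 in 4OHT, 11 were lower and 18 higher, with a median log2 fold change of 0.19 against 0.03 over all genes. NUDT16L1 rose by 0.47 ± 0.12 (log2 fold change ± SE, edgeR adjusted p = 0.000421), TRIB2 by 0.53 ± 0.10 and PRRC1 by 0.31 ± 0.08, while F3 fell by 0.99 ± 0.06.

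The level of a matrix gene and the PSI of its long exons are set side by side here. FN1 fell from 18061 to 6839 CPM between DMSO and 4OHT with siNT, a log2 fold change of -1.40 ± 0.11, while EDA PSI was 61.3 and 62.9. After siRBM39 in 4OHT, where EDA and EDB shifted most, the FN1 change was -0.06 ± 0.11 (edgeR adjusted p = 0.664). TNC rose from 770 to 1416 CPM in 4OHT and changed by -0.30 ± 0.08 on the log2 scale after siRBM39 (0.00246), and COL6A3 fell from 10470 to 5695 CPM in 4OHT. SVIL rose from 292 to 817 CPM with 4OHT (log2 fold change 1.48 ± 0.06) as its long exon became less included, and F3 from 395 to 873 CPM (1.14 ± 0.06).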

How the data were processed

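Libraries were made by poly(A) capture from IMR90 ER:RAS cells. Per its methods, the study quantified splicing with vast-tools version 2, and the authors deposited a table of PSI, in percent, for each splicing event with corrected inclusion and exclusion read counts, and a table of gene counts with cRPKM, a length-corrected RPKM. The authors' RPKM and normalised CPM values were not used for any test. CPM was recomputed from the deposited counts with edgeR's TMM scaling factors. The submitters' notes name hg19, limma and edgeR. Event coordinates lay in GRCh38 gene spans for 22487 of 22491 exons against 2884 in GRCh37, so they were not printed. Exons were matched to GENCODE release 44 lifted to GRCh37 by gene symbol, exon length and both flanking intron lengths, which placed 740 of the 944 long exons and no unmatched exon is given a position. Sequences are from the GRCh37 genome.

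PSI was taken as 0.01 plus 0.98 times its fraction, put on the logit scale and fitted in limma 3.58.1 (R 4.3.3) over all 24757 exons and 6 groups, without a replicate term, with Benjamini-Hochberg adjustment over all exons. Exons were called at an adjusted p under 0.05 and a difference of at least 5 points, and differences are of group means. The study's own range filter of 5 points across libraries was an alternative. Gene counts were tested with edgeR 4.0.16 (quasi-likelihood) over 9991 genes with at least 10000 counts in all. The scripts, in R and Python 3.11.15 (pandas 2.3.3, matplotlib 3.10.9), were tested on simulated data. DESeq2 1.42.0 was an alternative.

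Exons were named by rule: among those called without overlap of 8 and 8 libraries and with a median of at least 20 reads, the 12 largest falls and 6 largest rises after siSF3B1 in 4OHT, 8 and 6 after siRBM39 in 4OHT, 3 and 3 in DMSO, 6 and 6 between 4OHT and DMSO, 4 and 4 between knockdowns and 3 and 3 for differences between treatments. The 5 longest exons, 3 on each side of the length limit and up to 4 members of each gene list with the most reads could be named too. Other exons named (COL6A3 264 nt, ZNF638, those of the closing section, SEC31A and GPR176 in a plot, and members of gene lists) were chosen after their values were seen. A single exon that met the rule is not reported here. The members and lists were chosen with earlier results of these data known.

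All 72 pairs of libraries within a siRNA and treatment differed beyond sampling noise in junction reads (chi-square per degree of freedom 1.59 to 33.6), so none was merged. Replicate numbers did not pair libraries across groups in PSI, where correlations of same-numbered libraries' deviations ran from -0.0517 to 0.0383. For log2 CPM they ran from -0.906 to 0.811, and 31.8% were over 0.1. Their median was 0.0116 there, against 0.00088 for libraries of different number. This wide range leaves pairing in gene levels undecided. The methods describe 3 replicates, and the labels, used here, 4. PSI of a library with few reads is imprecise: the reads beside an exon give its depth, which covers counting error only. Alternatives were other filters, scales, tests, minimum differences, single siRNAs and leaving out replicates.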

Additional observations from a re-analysis of the deposited data

Results flagged for a closer look

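Over the named exons 84 groups of 8 libraries were examined for a library far from the rest (a gap to the nearest library of more than 0.526 of the range, Dixon's value for 8), and 9 were found. For normally distributed values chance gives about 1 in 20 groups, a rate that need not hold for PSI, which is capped at 100. Where all other libraries are at 100, a lower one is flagged however small its gap. In 4 siNT groups of 4OHT-treated cells a single library lay below 100 where all others were at 100: PRRC1 at 98.9 (siNT2, replicate 1), TRIB2 at 97.2 (siNT1, replicate 2), TIPARP at 99.1 (siNT2, replicate 2) and KIAA0100 at 98.5 (siNT1, replicate 4).

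In the knockdown groups of 4OHT-treated cells, F3 stood at 53.4 in siRBM39-08 replicate 1 (382 reads) where the others ran from 28.3 to 39.6, and PXN at 11.4 in siRBM39-08 replicate 4 (39 reads) against 1.82 to 4.65. LARP4B was at 77.8 in siSF3B1-13 replicate 4 (72 reads) against 89.1 to 98.4. In siNT libraries, SRRM2 (262 nt exon) was at 22.9 in 4OHT siNT2 replicate 1 (43 reads) against 6.67 to 11.4. FN1 EDA was at 68.1 in DMSO siNT1 replicate 4 (2406 reads) against 58.1 to 61.7, the deepest of these values by far.

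PRRC1 was the long exon whose response to siSF3B1 differed between treatments by a test of the difference itself, -12.7 points (the exon fell by 22.97 points in 4OHT and fell by 10.2 points in DMSO, limma adjusted p = 0.00255). It fell in 8 of 8 siSF3B1 libraries in each treatment.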

How the results depend on the processing

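Counts of long exons called are given in the order siSF3B1 in DMSO, siSF3B1 in 4OHT, siRBM39 in DMSO, siRBM39 in 4OHT, siSF3B1 against siRBM39, and 4OHT against DMSO with siNT. They were 42, 44, 21, 26, 50 and 8, with 1 for the difference in siSF3B1 effect between treatments and 0 for that of siRBM39. Keeping only exons with a PSI of 1 to 99 in every library and taking the plain logit, both at once and as the study did, left 20 long exons and gave 11, 9, 13, 11, 14 and 8, with 0 for the siSF3B1 difference. A stricter coverage score left 597 long exons and gave 24, 26 and 27 for both siSF3B1 comparisons and the direct one. Fewer exons were tested in each, and the filter and the change of logit were not run apart in the first. Without a minimum difference the counts were 100, 105, 39, 40, 106 and 14, with 3 and 1 for the differences between treatments. With a minimum of 10 points they were 18, 22, 28 (direct) and 5 (4OHT against DMSO). The counts for differences between treatments became 3 and 1 by limma on points, 0 and 1 when the fit held no other groups, 2 (siRBM39) with a group per siRNA, 0 (siSF3B1) with siNT2 alone and 2 (siSF3B1) with siSF3B1-16 alone. With siNT1 alone 3 long exons differed between 4OHT and DMSO. The cause was not tested for these.

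Without each replicate in turn the 6 counts ran 30 to 35, 36 to 46, 16 to 22, 19 to 23, 39 to 47 and 4 to 7, and those for the differences between treatments 0 to 2 and 0 to 1. The siSF3B1 difference gave 2 without replicate 1 and 0 without replicate 2, and 4OHT against DMSO gave 5 without replicate 2 and 4 without replicate 3. With a replicate block the counts were 41, 44, 21, 26, 50, 7, 1 and 0, and the host genes 535, 566, 340 and 394, so that the block moved no count by over 1.5 times. Replicates share only a number here. Of the other values, 140 counts stayed within 1.5 times, the limit included, and 255 differences of named exons kept their direction and moved by no more than the SD between replicates. Depth limits exons on few reads, and a PSI of 100 or 0 in all libraries does not show that no transcript skips or keeps the exon.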

Other observations

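Of the 59 exons of 1000 nt or more, 11 (18.6%) were called in at least 1 of the 8 comparisons, against 11.4% of all exons tested and 8.47% of long exons, and all but NDUFV3, ACIN1 and ZNF638 were called lower after siSF3B1. Those not yet described, listed after their values were seen, lie in BAZ1B (1702 nt), a subunit of chromatin remodelling complexes, with a PSI that fell by 5.17 points in DMSO and 6.26 in 4OHT, and in ST5 (1260 nt), which fell by 16.3 points in DMSO and fell by 13.96 in 4OHT. BIRC2 (2152 nt), an inhibitor of apoptosis, fell by 5.71 points and CAND1 (1494 nt), an exchange factor of cullin ligases, fell by 7.34 points in 4OHT. ASNSD1 (1556 nt) fell by 7.46 points and SH2B1 (1022 nt), an adaptor protein, fell by 8.87 points in DMSO. All differences passed limma's adjusted threshold.

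SRRM2 held 3 long exons that responded, chosen here after their values were seen. The 273 nt exon fell after both knockdowns (by 17.8 points after siSF3B1 in DMSO, 12.8 in 4OHT, and after siRBM39 by 11.3 and 12.9 points). The 262 nt exon passed the test after siRBM39 and not after siSF3B1, and differed between the knockdowns in 4OHT by 8.27 points when tested directly. The 366 nt exon fell by 6.46 points after siRBM39 in 4OHT and differed between the knockdowns by 6.80 points. LRRC17 and PQBP1 fell after both knockdowns as well: LRRC17 by 16.9 points after siRBM39 in 4OHT, and PQBP1 by 23.3 points in DMSO and 18.5 in 4OHT after siRBM39, with overlapping libraries.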
